A study of Mus musculus with 8 samples.

Results

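The Fc receptor family was followed through the nuclei of mouse cortex by 7 of the 31053 genes counted, *Fcrl1*, *Fcrls*, *Fcrl5*, *Fcgr1*, *Fcgr2b*, *Fcgr3* and *Fcer1g*. *Fcrl1* and *Fcrls* were chosen by their readout, as genes higher in *Ifnar1*-/- than in Wt microglia, so their difference in microglia is described here and not tested. The other 5 genes were added for comparison, as a further Fc receptor-like gene and as Fc receptors of microglia. Single nuclei RNA sequencing (snRNA-seq) was performed on the cortex of 8 naive mice whose strain label was C57BL6J, labelled as 6 weeks old. The 4 Wt mice were labelled *Ifnar1*+/+ and the 4 *Ifnar1*-/- mice lacked the type I interferon receptor subunit IFNAR1 in all cells, with 2 females (F1, F2) and 2 males (M1, M2) in each genotype. The knockout was constitutive, so an effect that arose in microglia and one that began in another cell cannot be told apart. The knockout line was backcrossed, so an effect of IFNAR1 loss and one of other line differences cannot be told apart either. No group received a treatment.

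Fc receptors bind the constant part of antibodies and pass the signal into phagocytic cells. *Fcgr1* encodes a high affinity receptor for IgG and *Fcgr3* a low affinity one, and both need the signalling gamma chain encoded by *Fcer1g*, whose ITAM motif recruits the kinase Syk. *Fcgr2b* encodes the inhibitory IgG receptor, which carries an ITIM motif and recruits the phosphatase encoded by *Inpp5d*. The Fc receptor-like genes belong to the same immunoglobulin superfamily: *Fcrl1* and *Fcrl5* are known as receptors of B cells, whereas *Fcrls*, which encodes a receptor-like protein with a scavenger receptor domain, is a known marker of mouse microglia.

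On mouse build GRCm38 (GENCODE M21), the 3 *Fcrl* genes lie near each other on chromosome 3. *Fcrls* runs from 87250758 to 87263738 on the minus strand. *Fcrl1* runs from 87376387 to 87402934 on the plus strand, 112649 bp beyond *Fcrls*. *Fcrl5* follows from 87435773 to 87500678 on the plus strand, 32839 bp beyond *Fcrl1*. *Fcgr1* is on the same chromosome, from 96282909 to 96293969 (minus strand), 8782231 bp away from *Fcrl5*. The remaining 3 genes form a group on chromosome 1, all on the minus strand, with *Fcgr2b* from 170958617 to 170976547, *Fcgr3* from 171051174 to 171064935 and *Fcer1g* from 171229572 to 171234365. UMIs of *Fcgr2b* and *Fcgr3* carry some uncertainty, since the annotated transcripts of these 2 genes shared 62 stretches of 91 bases, the length of the cDNA read, or 3.58% of those of *Fcgr3* (shared stretches with other genes included, 2.03% of those of *Fcgr2b*). The other 5 genes shared 0 such stretches with any annotated transcript. Only annotated transcripts were compared, while the authors also counted unspliced RNA, so sequence shared within introns was not checked. *Fcgr2b* also overlaps *Gm38204* on the opposite strand.

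The RefSeq promoters (GRCm38.p6, 250 bases before to 50 bases after the gene start, in the direction of the gene) are shown for the 2 genes chosen by their difference and for *Fcgr1*, a comparator on the same chromosome that did not pass the test. Capitals mark the letters of the motifs searched for on both strands: GAGGAA, the core bound by the myeloid factor PU.1; GAAANNGAA, the core of the interferon response element; and TTCNNNGAA, the GAS motif of STAT factors.
Fcrl1 (chr3:87376137-87376436, plus strand): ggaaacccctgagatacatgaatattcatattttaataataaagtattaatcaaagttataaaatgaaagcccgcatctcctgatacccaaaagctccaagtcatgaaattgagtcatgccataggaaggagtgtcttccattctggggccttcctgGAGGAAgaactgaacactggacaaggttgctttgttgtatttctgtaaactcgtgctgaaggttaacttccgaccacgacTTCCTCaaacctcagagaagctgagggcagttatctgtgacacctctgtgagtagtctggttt
Fcrls (chr3:87263475-87263774, minus strand): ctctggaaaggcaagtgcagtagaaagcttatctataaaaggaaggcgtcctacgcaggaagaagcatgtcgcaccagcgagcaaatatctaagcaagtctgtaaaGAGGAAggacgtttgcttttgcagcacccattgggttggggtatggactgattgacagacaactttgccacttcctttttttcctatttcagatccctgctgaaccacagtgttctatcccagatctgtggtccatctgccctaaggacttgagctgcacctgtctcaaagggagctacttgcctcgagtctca
Fcgr1 (chr3:96293920-96294219, minus strand): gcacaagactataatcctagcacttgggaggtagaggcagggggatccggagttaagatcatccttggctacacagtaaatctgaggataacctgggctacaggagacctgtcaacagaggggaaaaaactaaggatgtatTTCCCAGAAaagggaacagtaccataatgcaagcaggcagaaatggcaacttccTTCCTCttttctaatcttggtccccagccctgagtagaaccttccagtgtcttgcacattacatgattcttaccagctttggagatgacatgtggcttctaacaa
The PU.1 core was found in the promoters of 4 of the 7 genes, *Fcrl1*, *Fcrls*, *Fcgr1* and *Fcgr3*, and in 28.3% of the 32851 promoters of this length. *Fcrl1* held it 2 times, starting at bases -93 and -13 relative to the RefSeq gene start, and *Fcrls* held it 1 time, starting at base -144. The RefSeq start of *Fcrls* and this match both lie inside the GENCODE span of the gene given above. GAAANNGAA was found in 0 of the 7 genes, against 8.56% of all promoters. The GAS motif was found in *Fcgr1* only among the 7 (TTCCCAGAA, starting at base -109), against 8.3% of all promoters. A match describes these letters and is not a measurement of binding.

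Microglia comprised 4389 of 52089 nuclei kept (8.43%), in 2 clusters that were formed without the 7 genes. They held UMIs of all 11 microglia markers fixed for naming, including *Csf1r*, *Cx3cr1*, *P2ry12* and *Tmem119*. A separate cluster of 97 nuclei, led by genes such as *Mrc1*, *F13a1* and *Pf4*, was named border macrophages. A unique molecular identifier (UMI) counts 1 captured RNA molecule, and CPM is the usual scaling of UMIs by the UMI total, here that of the class in a library. Library totals were 44063346 to 58423423 UMIs. The microglial UMIs per library ranged from 175051 to 1269943, with *Ifnar1*-/- F1 lowest at 156 nuclei against 438 to 768 in the other libraries. A cluster of 107 nuclei with markers of both microglia and neurons, 72 of them from *Ifnar1*-/- F1, was left out of the class. *Ifnar1* itself was detected in every library, at 42.4 to 62.1 CPM in Wt microglia and 22.9 to 36.2 CPM in *Ifnar1*-/- microglia, a log2 fold change of -0.79 (SE 0.22, adjusted p = 1 in edgeR's test). Counts per gene do not show whether the part of the transcript that was disrupted is present. The number of barcodes shared by 2 libraries was 3 to 30 over the 28 pairs. Each library is 1 mouse, and p-values measure the spread between these libraries only.

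*Fcrl1* had few UMIs in Wt microglia and was detected in every *Ifnar1*-/- library. Its UMIs in Wt were 1 in F1, 1 in F2, 2 in M1 and 1 in M2, and in *Ifnar1*-/- they were 8 in F1, 52 in F2, 32 in M1 and 49 in M2. The groups did not overlap in UMIs or in CPM, where Wt spanned 0.84 to 3.62 and *Ifnar1*-/- 38.6 to 64.7. Of all genes tested in microglia, 0.672% lay higher without overlap, and *Fcrl1* was chosen for being higher in these libraries. Summed over mice, 5 UMIs of 3614538 in Wt stood against 141 of 3061479 in *Ifnar1*-/-, a 33.3-fold ratio with a 95% interval of 13.9 to 104 that covers counting error only. After TMM normalization the level was 1.70 ± 1.30 CPM (SD, n = 4) in Wt and 49.0 ± 13.1 CPM (SD, n = 4) in *Ifnar1*-/-, which gave a log2 fold change of 4.94 (SE 0.43). It was 4.96 without *Ifnar1*-/- F1. Both sexes showed it, with mean levels of 1.13 and 57.7 CPM in females and 2.27 and 40.2 CPM in males.

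*Fcrls* was abundant in Wt microglia and higher in *Ifnar1*-/- microglia, by 2.87-fold in UMIs summed over mice (95% counting interval 2.72 to 3.03). Its levels in Wt were 443 CPM in F1, 419 in F2, 556 in M1 and 700 in M2, from 306 to 798 UMIs a library. In *Ifnar1*-/- they were 1914 CPM in F1, 1605 in F2, 2191 in M1 and 1035 in M2, from 335 to 1780 UMIs. The lowest *Ifnar1*-/- library, M2, lay above the highest Wt library, also M2, and the 2 groups did not overlap. The same held for 0.672% of all genes tested in microglia. The normalized means were 545 ± 142 CPM (SD, n = 4) in Wt and 1750 ± 505 CPM (SD, n = 4) in *Ifnar1*-/-, which gave a log2 fold change of 1.68 (SE 0.25), and of 1.62 without *Ifnar1*-/- F1. Within females the means were 441 and 1838 CPM, and within males 648 and 1661 CPM. The gene was chosen on these same values, which are given as a description.

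**Figure D1:**
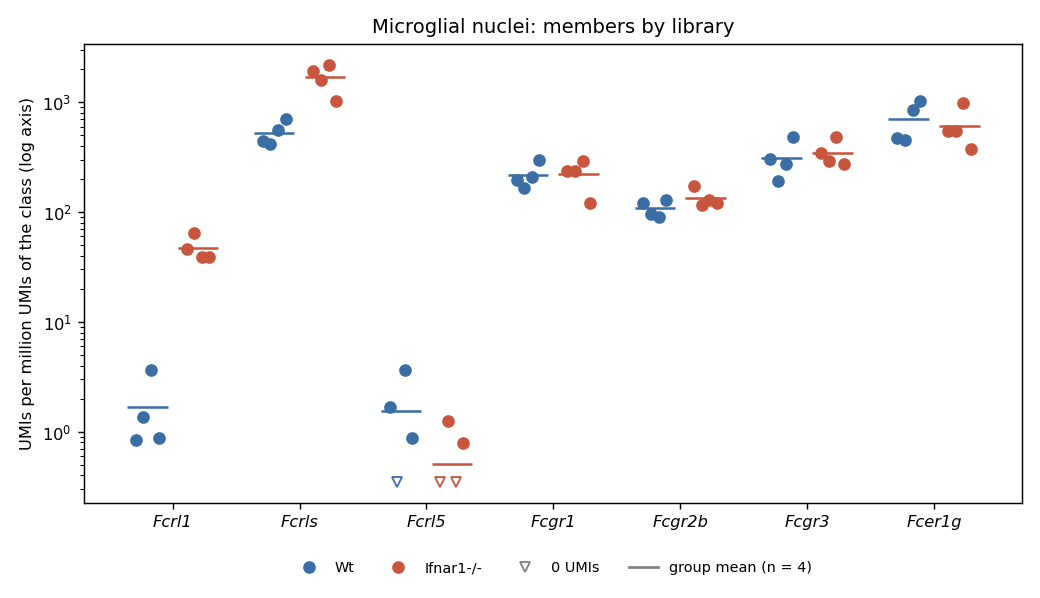
Level of the 7 genes in microglia, in CPM on a log axis, with 1 point per library and a line at each group mean. Points of *Fcrl1* and *Fcrls* separate by genotype, those of *Fcgr1*, *Fcgr2b*, *Fcgr3* and *Fcer1g* overlap, and *Fcrl5* rests on 0 to 2 UMIs a library.

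The same difference was counted by nuclei. *Fcrl1* had a UMI in 5 of 2423 Wt nuclei (0.206%, Wilson 95% interval 0.0882% to 0.482%) and in 130 of 1966 *Ifnar1*-/- nuclei. The interval pools the nuclei of all Wt mice, covers counting error only and leaves out the spread between mice. Of those 130 nuclei, 119 held 1 UMI and 11 held 2, and none held more. *Fcrls* had a UMI in 1171 Wt nuclei and 1652 *Ifnar1*-/- nuclei, and nuclei with 3 or more numbered 185 in Wt and 795 in *Ifnar1*-/-.

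The same UMIs were also counted at equal depth, as a description of the 2 genes chosen for this difference. With each nucleus thinned to 1000 UMIs, the share with an *Fcrls* UMI averaged 37.9% ± 5.78 (SD, n = 4) in Wt and 76.4% ± 9.72 in *Ifnar1*-/-, against 47.3% ± 6.50 and 84.9% ± 4.82 unthinned. The lowest thinned *Ifnar1*-/- library was at 63.0% and the highest Wt library at 44.5%. For *Fcrl1* the thinned shares were 0.133% ± 0.0953 in Wt and 4.20% ± 1.36 in *Ifnar1*-/-, against 0.223% ± 0.133 and 6.54% ± 2.86 unthinned. Glutamatergic neurons, which should lack both genes, held an *Fcrls* UMI in 0.784% and an *Fcrl1* UMI in 0.0339% of nuclei, although their median depth was 8854 UMIs against 1472 in microglia. In Wt neurons alone the *Fcrl1* share was 0.0153%, from 2 nuclei, and the Wt microglial share rests on 5 nuclei.

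The other Fc receptors were counted in nuclei with and without *Fcrl1*. In *Ifnar1*-/- microglia, an *Fcrls* UMI was found in 87.7% of the 130 nuclei with *Fcrl1* and in 83.8% of those without. The corresponding shares were 31.5% and 25.8% for *Fcgr1*, 21.5% and 16.6% for *Fcgr2b*, 31.5% and 39.5% for *Fcgr3* and 53.1% and 54.4% for *Fcer1g*. These shares describe nuclei of the same 4 libraries and carry no test. The 2 microglial clusters were drawn mostly from females (cluster 0) and mostly from males (cluster 11), and *Fcrl1* was present in both in *Ifnar1*-/-, with 51 UMIs in cluster 0 of F2 and 47 UMIs in cluster 11 of M2. *Xist*, *Tsix* and the genes of chromosome Y were left out of the clustering, and what separates the 2 clusters was not tested.

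None of the 4 comparators that could be tested in microglia passed the test, in either direction. *Fcgr1* stood at 167 to 301 CPM in Wt and 120 to 293 CPM in *Ifnar1*-/-, and its log2 fold change was 0.02 (SE 0.27). *Fcgr3* stood at 192 to 481 CPM in Wt and 273 to 479 CPM in *Ifnar1*-/-, with a log2 fold change of 0.15 (SE 0.28). Wt and *Ifnar1*-/- libraries overlapped for both of these activating receptors. For the inhibitory *Fcgr2b*, the levels were 90.6 to 129 CPM in Wt and 117 to 171 CPM in *Ifnar1*-/-, a log2 fold change of 0.27 (SE 0.19). For *Fcer1g*, the chain that the activating receptors share, they were 451 to 1026 CPM in Wt and 375 to 977 CPM in *Ifnar1*-/-, a log2 fold change of -0.18 (SE 0.33). Its 3 highest libraries were the males Wt M2, *Ifnar1*-/- M1 and Wt M1, and its lowest was the remaining male, *Ifnar1*-/- M2. The adjusted p was 1 for all 4 genes by the quasi-likelihood test of edgeR with Benjamini-Hochberg adjustment over 9526 genes, of which 0.0945% were called. DESeq2 also called 0 of the 4. None of the 4 had groups without overlap, which was the case for 0.672% of all genes tested in the higher and 0.966% in the lower direction. Without *Ifnar1*-/- F1 the log2 fold changes were -0.0017 for *Fcgr1*, 0.17 for *Fcgr2b*, 0.16 for *Fcgr3* and -0.14 for *Fcer1g*. A term for the interaction of genotype with sex was called for 0 genes.

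*Fcrl5* could not be tested in microglia, with 5 UMIs in the 4 Wt libraries and 2 in the 4 *Ifnar1*-/- libraries. Its level did not set microglia apart: pooled over libraries it was 1.05 CPM in microglia, from 7 UMIs, 0.881 CPM in glutamatergic neurons and 0.616 CPM in GABAergic neurons. Glutamatergic neurons, which held most UMIs of all genes, held 72.8% of its 309 UMIs. Of the other 6 genes, 80.5% (*Fcgr3*) to 89.7% (*Fcgr1*) of UMIs were in microglia, which held 8.43% of the nuclei.

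The genes through which Fc receptors signal gave no call in microglia. Of 29 signalling genes listed, 27 passed the filter on low counts, 0 were called in either direction and 0 had an unadjusted p under 0.05 in edgeR's test. Of all 9526 genes tested in microglia, 0.0945% were called and 152 had such a p. At such shares, 0 among 27 genes is not unusual. The median log2 fold change of the 27 was -0.06, beside 0.01 over all genes tested in microglia, and the values ran from -0.47 to 0.22. Among the adaptors, *Tyrobp*, which encodes an ITAM chain related to that of *Fcer1g*, had a log2 fold change of -0.20 (SE 0.31), and *Gab2* one of -0.04. Among the kinases, *Lyn*, which phosphorylates ITAM and ITIM motifs, had -0.11 (SE 0.19). *Syk*, named here for its role and after its values were seen, had 0.07 (SE 0.18). Among the effectors, *Plcg2*, a phospholipase downstream of Syk, had -0.19 (SE 0.18) and *Dock2* -0.01 (SE 0.20). *Inpp5d*, the phosphatase that acts with *Fcgr2b* and the most abundant gene of these lists, had 2583 ± 373 CPM (SD, n = 4) in Wt and 2439 ± 358 CPM in *Ifnar1*-/-, a log2 fold change of -0.08 (SE 0.18).

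Neighbouring lists gave no call either, where 0.0945% of all genes tested in microglia were called. Of the 7 tested genes in a list of 9 other receptors that carry or pair with ITAM or ITIM motifs, among them *Trem2* (-0.15 log2 fold change), *Siglech* (0.16) and *Sirpa* (0.05), 0 were called. Of 12 homeostatic microglia genes, 0 were called, with a median log2 fold change of 0.13 and the highest value in *P2ry12* (0.32, SE 0.16, unadjusted p = 0.0737 and adjusted p = 1 in edgeR's test). *Fcrls* is often listed beside these genes, and its log2 fold change of 1.68 lay outside their range of -0.19 to 0.32. Of 11 other Fc receptor genes, *Fcgrt*, which encodes the neonatal Fc receptor, was the only one tested, with a log2 fold change of -0.02 (SE 0.39). *Ighm* was the only one of 11 ligand genes tested, with 0.15 (SE 0.36).

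**Figure D2:**
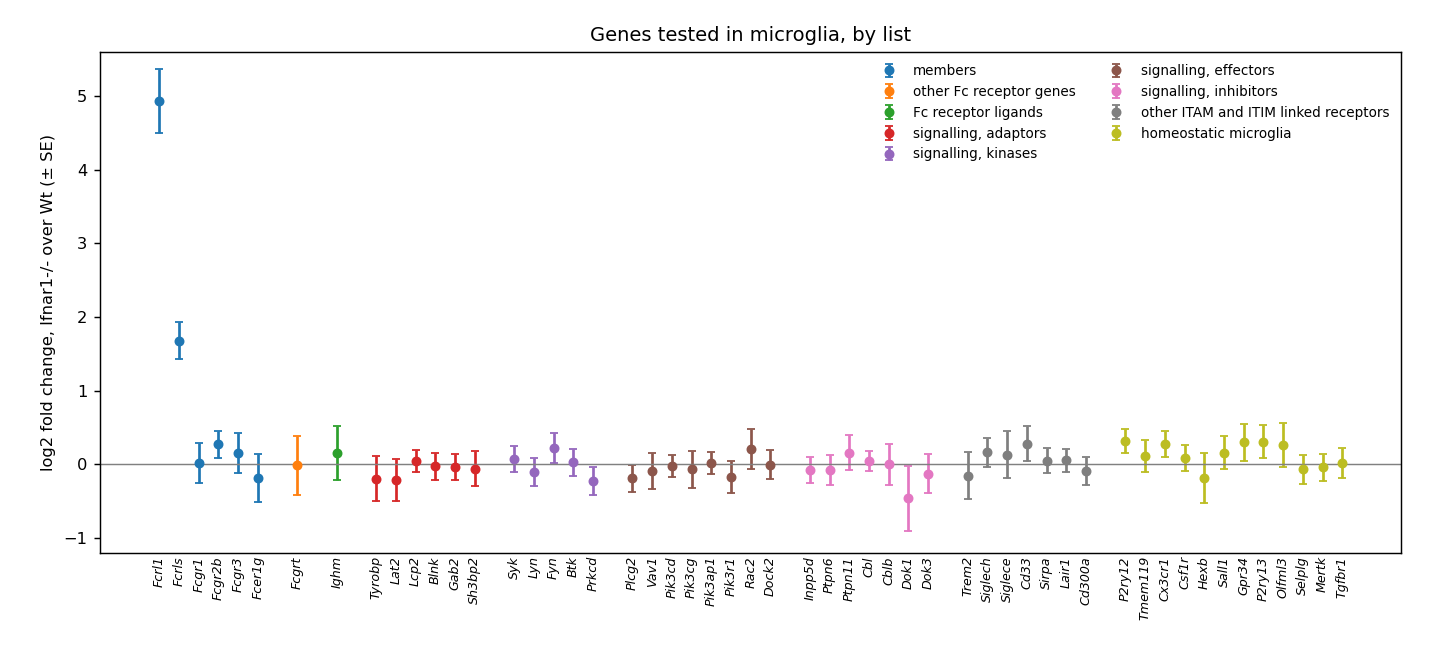
Log2 fold change in microglia, *Ifnar1*-/- over Wt, with its standard error for the listed genes that passed the filter on low counts and are reported here. *Fcrl1* and *Fcrls*, which were chosen for this difference, lie at 4.94 and 1.68, and all other genes shown lie between -0.47 and 0.32.

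Because *Fcrl1* is known from B cells, markers of that lineage were counted in the microglial nuclei. Of 8 B cell markers, 6 had a UMI in Wt and 6 in *Ifnar1*-/-, and their summed level was 369 to 586 CPM in Wt and 368 to 691 CPM in *Ifnar1*-/-. Most of it came from *Bank1* (1146 and 1093 UMIs), *Ighm* (456 and 369 UMIs) and *Cd79b* (130 and 79 UMIs). The markers *Cd79a*, *Ms4a1* and *Pax5* had 2, 0 and 2 UMIs in Wt and 3, 1 and 1 UMIs in *Ifnar1*-/-, against 5 and 141 for *Fcrl1*. The part of B cells in the *Fcrl1* difference was not tested. The border macrophage markers summed to 21.7 to 28.5 CPM in Wt and 24.6 to 36.2 CPM in *Ifnar1*-/-, with *Lyve1* at 0 in both.

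Across cell classes, *Fcrls*, *Fcgr1*, *Fcgr2b*, *Fcgr3* and *Fcer1g* had their highest pooled levels in microglia and border macrophages. Pooled over libraries, *Fcrls* stood at 997 CPM in microglia and 837 CPM in border macrophages, and at 0.905 CPM in glutamatergic neurons, a 1102-fold ratio of microglia to neurons. The same ratio was 731-fold for *Fcgr1*, 542-fold for *Fcgr2b*, 399-fold for *Fcer1g* and 271-fold for *Fcgr3*. For *Fcrl1* the ratio depends on genotype, with pooled levels of 1.38 CPM in microglia and 0.0153 CPM in glutamatergic neurons (2 UMIs) of Wt, and of 46.1 and 0.0562 CPM (7 UMIs) in *Ifnar1*-/-. In oligodendrocytes the 6 genes stood at 0.124 to 4.11 CPM, and in GABAergic neurons at 0.0377 to 2.08 CPM. In these 3 classes each of the 6 genes, taken singly, had a UMI in at most 1.46% of nuclei. Whether such UMIs were free RNA was not tested.

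The 2 myeloid classes were set side by side for *Fcgr2b* and *Fcrl1*, with no test. *Fcgr2b* was at 413 CPM in border macrophages, pooled over libraries, and at 119 CPM in microglia, and in 7 libraries its level there (320 to 659 CPM) was above the highest microglial level of 171 CPM. The remaining library, *Ifnar1*-/- F1, had 0 *Fcgr2b* UMIs in 2 border macrophage nuclei. *Fcrl1* had 0 UMIs among the 186348 UMIs of border macrophages, which allows up to 16.1 CPM. In the *Ifnar1*-/- libraries alone this floor was 29.3 CPM, below the 38.6 to 64.7 CPM of *Ifnar1*-/- microglia. In border macrophages *Fcrls* had a log2 fold change of 0.07 (SE 0.60), from 72 UMIs in Wt and 84 in *Ifnar1*-/-.

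**Figure D3:**
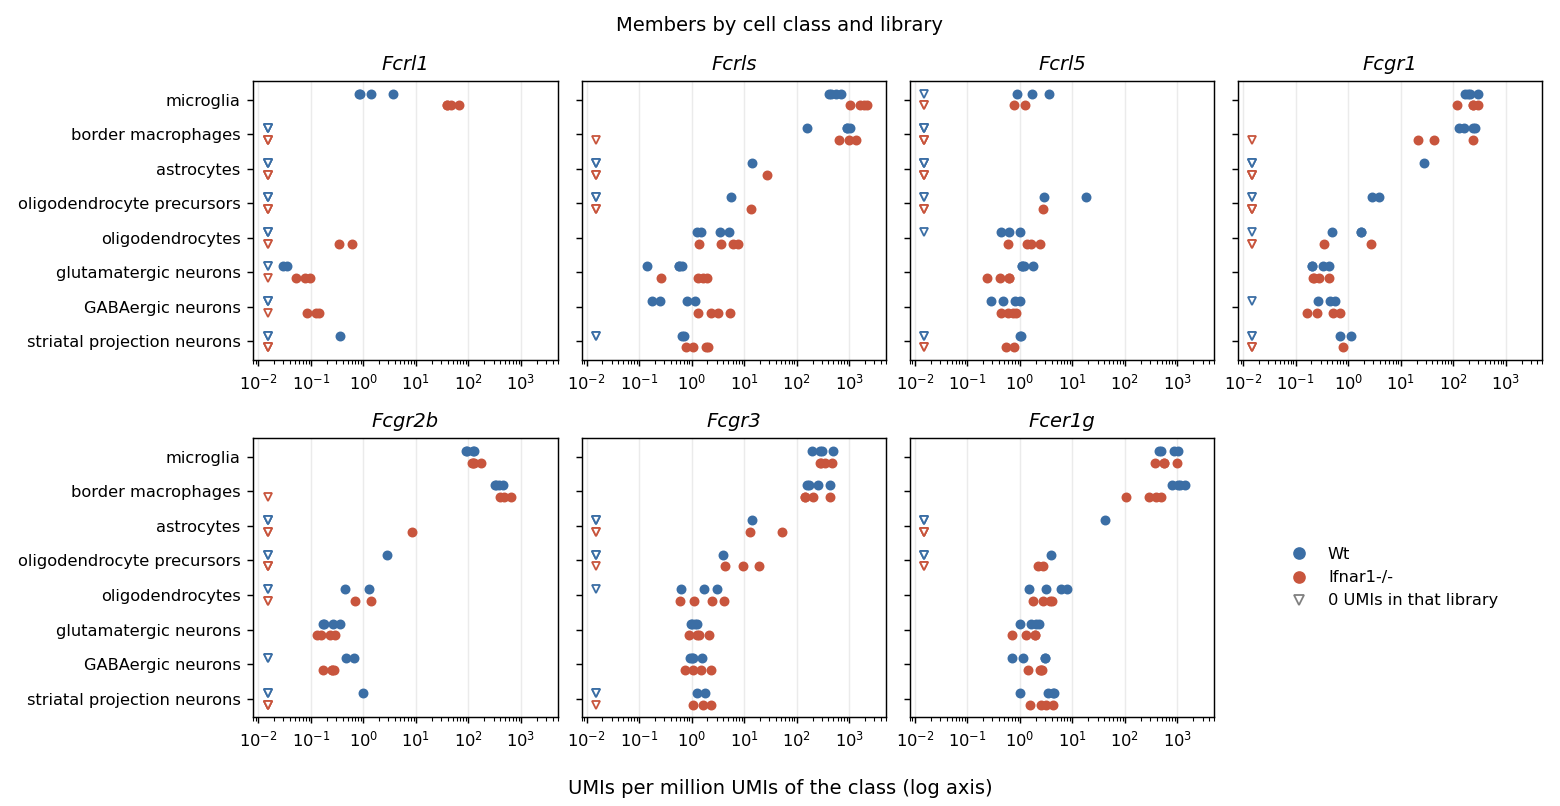
Level of each of the 7 genes in 8 cell classes, in CPM on a log axis, with 1 point per library and open triangles for libraries with 0 UMIs. *Fcrls*, *Fcgr1*, *Fcgr2b*, *Fcgr3* and *Fcer1g* peak in the 2 myeloid classes. *Fcrl1* peaks in microglia and has 0 UMIs in border macrophages.

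*Fcer1g* had lower levels in *Ifnar1*-/- than in Wt border macrophages, a difference that did not pass the threshold. Its levels were 1120 CPM in Wt F1, 772 in F2, 1013 in M1 and 1389 in M2, and in *Ifnar1*-/- they were 284 in F1, 395 in F2, 485 in M1 and 105 in M2. The groups did not overlap, from 96 UMIs in 50 Wt nuclei and 28 UMIs in 47 *Ifnar1*-/- nuclei. Of all genes tested in this class, 3% lay lower without overlap and 0.858% higher. The log2 fold change was -1.71 (SE 0.51), with an unadjusted p of 0.00622 and an adjusted p of 0.399 in edgeR's test over 233 genes, of which 0% were called and 8 had an unadjusted p under 0.05. Without *Ifnar1*-/- F1, which holds 2 of these nuclei, the log2 fold change was -1.77 (adjusted p = 0.461 in edgeR's test).

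Outside the myeloid classes, *Fcrls* had few UMIs, more of them in *Ifnar1*-/- libraries. Glutamatergic neurons held 63 *Fcrls* UMIs in Wt and 168 in *Ifnar1*-/-, at 0.143 to 0.659 CPM and 0.265 to 1.98 CPM, and these groups overlapped. GABAergic neurons held 25 and 119 UMIs, at 0.176 to 1.14 CPM and 1.33 to 5.29 CPM, without overlap. Of the genes tested in this class, 0.675% lay higher and 0.632% lower without overlap. Being chosen for the same difference, the gene was not tested in neurons, and whether these UMIs came from neurons or from RNA of microglia was not tested. *Fcgr3* (log2 fold change 0.38, SE 0.28) and *Fcer1g* (-0.21, SE 0.35) passed the filter in glutamatergic neurons and had an adjusted p of 1 in edgeR's test. In GABAergic neurons *Fcgr3* (0.25, SE 0.40) and *Fcer1g* (0.18, SE 0.45) had an adjusted p of 1 too, where 0.0307% of 16306 genes were called. No member passed the filter in oligodendrocytes, where 0.0632% of 11074 genes were called.

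*Fcrl5* in glutamatergic neurons had lower levels in *Ifnar1*-/- mice, a difference that did not pass the threshold in edgeR. Its UMIs were 41, 39, 59 and 31 in Wt F1, F2, M1 and M2, and 17, 16, 9 and 13 in *Ifnar1*-/- F1, F2, M1 and M2. Every *Ifnar1*-/- library lay below every Wt library, as did 0.81% of the genes tested in this class, while 0.713% lay above. The normalized level was 1.29 ± 0.30 CPM (SD, n = 4) in Wt and 0.47 ± 0.19 CPM in *Ifnar1*-/-, a log2 fold change of -1.48 (SE 0.33). The unadjusted p was 0.00162 and the adjusted p 0.792 by the quasi-likelihood test of edgeR over 18525 genes, of which 0.0594% were called. DESeq2 gave -1.48 with an adjusted p of 0.0481, and edgeR without *Ifnar1*-/- F1 gave -1.66 with an adjusted p of 0.823. In GABAergic neurons *Fcrl5* stood at 0.276 to 0.997 CPM in Wt and 0.434 to 0.841 CPM in *Ifnar1*-/-, from 25 and 24 UMIs. In oligodendrocytes the direction was the opposite, at 0 to 0.993 CPM in Wt and 0.595 to 2.42 CPM in *Ifnar1*-/-, from 4 and 13 UMIs, with overlap and too few UMIs for the test.

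Of the 17 glutamatergic clusters, 2 are described for *Fcrl5*, and both were picked after their values were seen. Cluster 26, led by *Fam19a1* and *6530403H02Rik*, held 47 of the 170 Wt UMIs in 779 nuclei and 5 of the 55 *Ifnar1*-/- UMIs in 921 nuclei. Its level was 4.15 CPM in Wt F1, 5.16 in F2, 7.53 in M1 and 5.90 in M2, against 0.877 in *Ifnar1*-/- F1, 0 in F2, 0.409 in M1 and 0.915 in M2. Cluster 19, led by *Dcn* and *6530403H02Rik*, held 18 Wt UMIs and 3 *Ifnar1*-/- UMIs. In the remaining 15 clusters together, 105 Wt UMIs and 47 *Ifnar1*-/- UMIs gave 0.889 and 0.420 CPM. The ratio of *Ifnar1*-/- to Wt was 0.101 (95% interval 0.0314 to 0.253) in cluster 26 and 0.192 (0.0363 to 0.659) in cluster 19. In those 15 clusters it was 0.472 (0.327 to 0.672). These intervals cover counting error only and not the choice of the 2 clusters, so the ratios are a description.

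**Figure D4:**
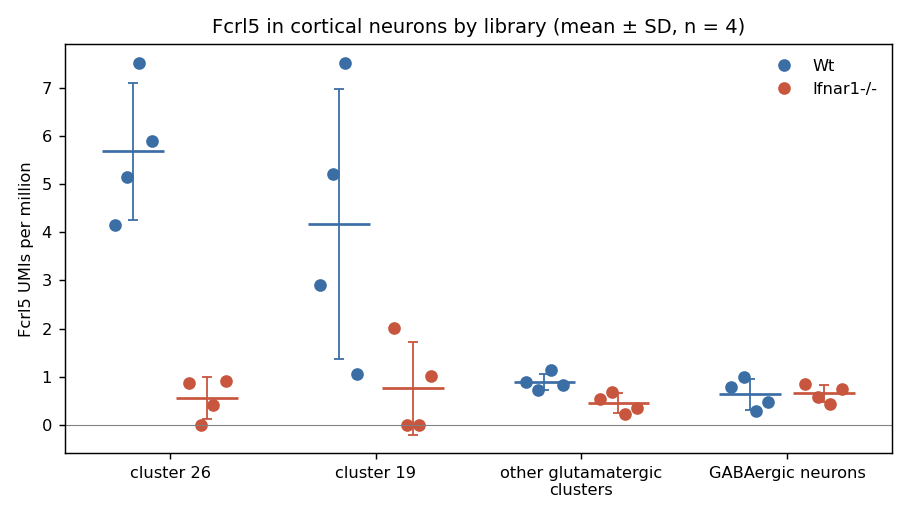
*Fcrl5* level in CPM in 2 glutamatergic clusters, the remaining glutamatergic clusters and GABAergic neurons, with 1 point per library and bars for mean ± SD (n = 4). The 4 Wt libraries in cluster 26 lie at 4.15 to 7.53 and the 4 *Ifnar1*-/- libraries at 0 to 0.915.

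On chromosome 3, the genes around *Fcrls* and *Fcrl1* were tested in microglia. Within 1 Mb on either side of the 3 *Fcrl* genes, 48 genes were counted and 23 passed the filter in microglia. Of the 21 that are not *Fcrl* genes, 0 were called, 9 had a positive and 12 a negative log2 fold change, and the median was -0.09. An unadjusted p under 0.05 in edgeR's test was found for 3 of them, against 152 of all 9526 genes tested in microglia. These 3 were all lower in *Ifnar1*-/- and are named here after their values were seen: *Dclk2* (-1.40, SE 0.25, adjusted p = 0.0888), *Rrnad1* (-0.49, SE 0.17, adjusted p = 1) and *Arhgef11* (-0.40, SE 0.17, adjusted p = 1). Also chosen for their place, *Etv3*, the next tested gene beyond *Fcrl5*, had a log2 fold change of -0.20 (SE 0.35), and *Cd1d1*, the nearest tested gene on the other side, -0.59 (SE 0.43). In glutamatergic neurons, 6 of 32 such neighbours had an unadjusted p under 0.05 in edgeR's test, against 328 of all 18525 genes. They too are named after their values were seen. *Gm38392* (1.05, SE 0.15, adjusted p = 0.094 in edgeR's test) and *Bglap3* (1.11, SE 0.32) were higher in *Ifnar1*-/-. *Kirrel* (-0.59), *Hdgf* (-0.39), *Isg20l2* (-0.37) and *Arhgef11* (-0.26) were lower. The counts were 3 of 28 in GABAergic neurons, against 282 of 16306, and 0 of 22 in oligodendrocytes, against 219 of 11074. *Gon4l*, 1334553 bp beyond *Fcrl5*, was higher in neurons and oligodendrocytes, by log2 fold changes of 1.01 (SE 0.07, adjusted p = 0.00184 in edgeR's test) in glutamatergic neurons, 1.14 (SE 0.08, adjusted p = 0.000999) in GABAergic neurons and 1.11 (SE 0.12, adjusted p = 0.00866) in oligodendrocytes. In microglia its log2 fold change was 0.68 (SE 0.15, adjusted p = 0.442).

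**Figure D5:**
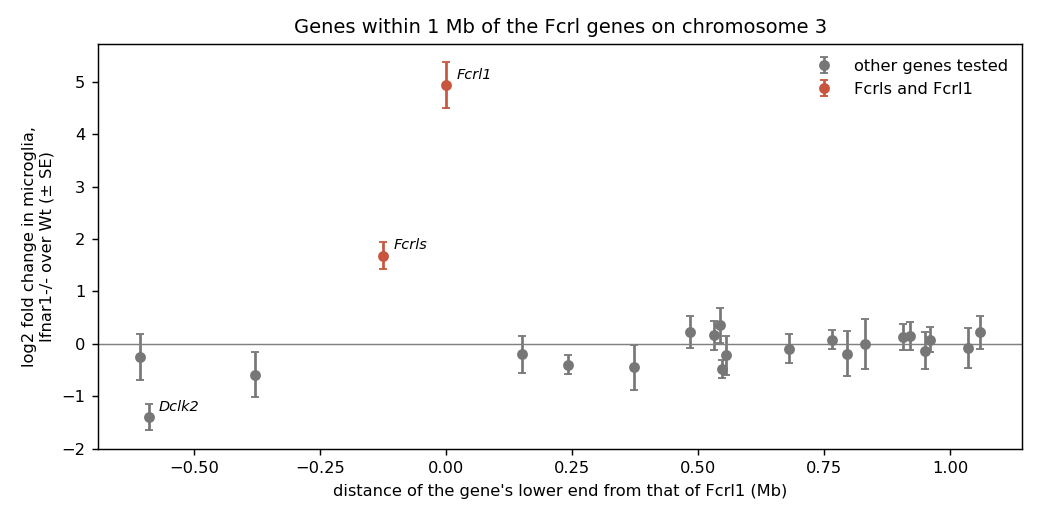
Log2 fold change in microglia, *Ifnar1*-/- over Wt, with its standard error for the 23 genes tested within 1 Mb of the *Fcrl* genes, by distance from *Fcrl1* in Mb. *Fcrl1* (4.94) and *Fcrls* (1.68) stand above all others, which lie between -1.40 and 0.35.

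The genes most like *Fcrl1* across the 8 microglial libraries, by Pearson correlation of log2 CPM, were *Hpgd* (0.94), *Nploc4* (0.94), *Tln2* (0.91), *Fcrls* (0.90) and *Gon4l* (0.90). Those most like *Fcrls* were *1700109H08Rik* (0.95), *Tln2* (0.93), *Prkra* (0.93), *P2ry12* (0.92) and *Nploc4* (0.91). The 8 points fall into the 2 genotypes, so any gene that differs between them scores high. Of the comparators, *Fcgr2b* correlated with *Fcrls* at 0.67, *Fcgr3* at 0.54, *Fcgr1* at 0.39 and *Fcer1g* at 0.20. Over 64 points of 8 classes and 8 libraries, which share libraries and differ in depth, *Fcrls* was most like *Cd300a* (0.96), *Ikzf1* (0.96), *Pik3ap1* (0.96), *Slco2b1* (0.96) and *Nckap1l* (0.95), genes whose own log2 fold changes in microglia lay between -0.10 and 0.10.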

How the data were processed

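Nuclei of 1 cortex per library were sequenced by 10x Genomics Single Cell 3' chemistry. The values are UMI counts per gene and nucleus as deposited by the authors, made with Cell Ranger 3.1.0 per the file headers, on mm10 per the labels. From these counts, nuclei with 200 to 6000 genes, more than 1000 UMIs and at most 10% mitochondrial UMIs were kept (54341 of 56780 barcodes), and 2252 doublets called by Scrublet (4.14%) were removed. The remaining 52089 nuclei were clustered with scanpy 1.11.5 and named from fixed markers. The 7 genes, the other Fc receptor genes listed, *Xist*, *Tsix* and the genes of chromosome Y were left out of the clustering. UMIs were summed per mouse and class and tested with edgeR 4.0.16 (R 4.3.3) by its quasi-likelihood test, with TMM, a filter on low counts and Benjamini-Hochberg adjustment over all genes tested (threshold 0.05). DESeq2 1.42.0, RLE factors, no filter, sex, a replicate block, other nuclei and leaving out each library were alternatives. The fit was tested on simulated data. Intervals are 95% and cover counting error only, and a count of 0 allows 3 UMIs. The members and lists were chosen with earlier results of these data known. Named genes were the 7 members, from each list those called in microglia or else at most 4 with the highest mean CPM, and the 5 most like *Fcrl1* or *Fcrls*. Promoters were taken from RefSeq, which had an entry for all 7 genes. Single values of some listed genes are not reported here.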

Additional observations from a re-analysis of the deposited data

Results flagged for a closer look

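The level of *Fcgr2b* in microglia of *Ifnar1*-/- F1, 178 CPM after TMM normalization, stood apart from the other 3 *Ifnar1*-/- libraries, which lay at 123 to 131 CPM. Its gap to the nearest library was 0.847 of the range of the group, past Dixon's 95% critical value for 4 samples. The value rests on 30 UMIs in 156 nuclei, the fewest of the 8 libraries. Chance alone marks about 1 in 20 groups in this way.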

How the results depend on the processing

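Of 232 values under alternatives for 27 results, 198 were labelled unchanged, by a rule that depended on the result. For *Fcrl1* and *Fcrls* in microglia it meant the same direction and a shift smaller than the pooled SD between libraries. For other differences it meant the same direction and side of the threshold. Counts of called genes had to stay near the main count, and shares of nuclei have no direction or threshold. The log2 fold change of *Fcrl1* ran from 4.68 to 5.38 and that of *Fcrls* from 1.48 to 1.86. Above 1500 UMIs a nucleus, *Fcrl1* failed the filter and gave no value. Comparator and signalling genes called stayed at 0 under every alternative. The alternative of nuclei with at least 2 microglia markers held the same nuclei as the main fit. Its values, counted among the 232, could not differ. All genes called in microglia went from 9 to 15 with DESeq2, 21 without a filter, 16 with sex, 17 with the replicate block, 4 above 1500 UMIs, 2 with the mixed microglia-neuron cluster and 3 to 12 without 1 library. Differences near 0 that were not called changed sign, *Fcgr1* to -0.00020 without a filter, -0.0223 with the replicate block and -0.19 with the mixed cluster, and *Fcgr3* to -0.0374 with the mixed cluster. Leaving out 1 library gave -0.16 to 0.26 for *Fcgr1*, -0.0511 to 0.45 for *Fcgr3* and -0.51 to 0.0742 for *Fcer1g* in microglia, and -0.40 to 0.00783 for *Fcer1g* and -1.66 to -1.23 for *Fcrl5* in glutamatergic neurons. *Fcrl5* there passed the threshold only with DESeq2 (-1.48, adjusted p = 0.0481). Thinned to 1000 UMIs, the shares of nuclei were 37.9% (Wt) and 76.4% (*Ifnar1*-/-) for *Fcrls*, 19.1% (*Ifnar1*-/-) for *Fcgr1*, 9.77% (Wt) and 12.8% (*Ifnar1*-/-) for *Fcgr2b* and 27.5% (*Ifnar1*-/-) for *Fcgr3*, lower by construction. The libraries share only the names F1, F2, M1 and M2. Deviations of same-named libraries correlated at 0.156, 0.584, 0.595 and -0.041, and 2 of 4 correlated best with their own name, so they were not treated as pairs. With the replicate block *Fcrl1* had 4.89 and *Fcrls* 1.67. Alternatives in neurons, with the mixed cluster and in border macrophages were chosen after seeing the data.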
